A study of Mus musculus with 3 samples.

Results

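Chemokines are small secreted proteins that draw white blood cells along a concentration gradient. The CXC chemokines Cxcl1, Cxcl2, Cxcl3, Cxcl5 and Ppbp bind Cxcr2 and attract mainly neutrophils, whereas Ccl2 and Ccl7 bind Ccr2 and attract monocytes. In surface epithelia such as that of the esophagus, many of these genes are switched on by NF-kB, the transcription factor family released from its inhibitor Nfkbia after signals from Tnf, interleukin-1 or Toll-like receptors. Ch25h, the fourth gene used here, encodes cholesterol 25-hydroxylase, an enzyme of the endoplasmic reticulum that makes the oxysterol 25-hydroxycholesterol.

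The chemokine-rich cells are the epithelial cells of a mouse esophageal culture that gave the largest share of their transcripts to Cxcl5, Ppbp, Ccl2 and Ch25h. The culture, named PC in the labels, came from esophageal organoids of Trp53 floxed/floxed mice. Trp53 was knocked out with Ad-Cre-EGFP, an adenovirus carrying Cre recombinase and a green fluorescent protein, and Cdkn2a was then knocked out with CRISPR/Cas9. All cells described here come from this edited culture, and there is no unedited control. Whether every cell carries both deletions was not tested. Organoid cells were dissociated and grown in DMEM with 10% FBS and Y-27632, a kinase inhibitor that was withdrawn after 3 passages. The cells expressed Cas9 constitutively, received a barcode library by transfection with Lipofectamine 3000, and were sorted as live RFP-positive cells before droplet capture with a 10x Genomics 3' v2 kit. The labels give the tissue as esophageal cancer and state no animal age, sex or number. The related PCN culture was not analysed here.

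All values come from 1 matrix of UMI counts, in which a UMI marks 1 captured RNA molecule, and the matrix formed 1 pooled sample. The 3 libraries in the labels (barcodes, gene expression and scar regions) are not told apart in it. There were therefore no replicates, no test was made and no p-value is given. The matrix held 18116 barcodes, none of them repeated. Filters of at least 500 detected genes, a total of 1000 UMIs or more and no more than 20% mitochondrial UMIs kept 14925 of them. Cells with more than 1 UMI summed over Vim, Col5a1, Grem1, Aebp1 and Ccn5 were set aside as mesenchymal (1825 cells), and so were cells with more than 1 UMI summed over Nusap1, Ube2c, Ccna2, Birc5, Cdc20, Top2a, Cdk1 and Cenpf as dividing (2556 cells, 154 of them over both limits). Among the remaining 10698 candidate cells, the 10% with the highest share of UMIs from Cxcl5, Ppbp, Ccl2 and Ch25h were taken, which gave 1070 chemokine-rich cells, or 7.17% of the 14925. They were compared with the 50% of candidate cells that had the lowest share, 5349 cells called chemokine-low here. The 4279 candidate cells between them are called middle cells.

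Depth differed between these sets. Chemokine-rich cells had a median of 3600.5 UMIs (95% interval of the median 3540 to 3677) and 1659 genes, middle cells 3071 UMIs, and chemokine-low cells 2259 UMIs (2222 to 2302) and 1243 genes. Median mitochondrial shares were 2.71% and 2.99% in the chemokine-rich and chemokine-low cells. The nuclear RNA Malat1 took 17220 UMIs per 1000000 (CPM) in the chemokine-rich and 24940 CPM in the chemokine-low cells. Levels are therefore given as CPM from UMIs summed over a set of cells, and shares of cells with a UMI are given after each cell was thinned to 1500 UMIs. Thinning left out 28 shallower chemokine-rich cells and 1206 shallower chemokine-low cells. A 3' UMI count is not scaled by gene length, so levels are compared within a gene only. Intervals in parentheses are exact 95% Poisson intervals for a level and exact binomial intervals for a share or ratio, and they cover counting error only.

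The engineered genes came first. Trp53 stood at 59.7 CPM in chemokine-rich and 47.8 CPM in chemokine-low cells. Cdkn2a, which encodes the inhibitors p16 and Arf, stood at 746 CPM and 482 CPM, a ratio of 1.55 that was 1.24 against chemokine-low cells drawn to the same depth, where it was no longer called by the rule given below. UMIs were counted at transcript 3' ends, and the sources used here do not name the altered exons, so neither level checks the knockouts.

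The 4 ranking genes chose the cells, so their values are a description. Ppbp encodes the pro-platelet basic protein, the precursor of the chemokine Cxcl7, and stood at 14120 CPM in chemokine-rich, 3711 CPM in middle and 530.5 CPM in chemokine-low cells. Cxcl5 stood at 6970, 1958 and 279.7 CPM in the same order. Ccl2, the monocyte chemokine also known as MCP-1, stood at 1361, 403.6 and 49.5 CPM. Ch25h stood at 317.7, 131.7 and 41.5 CPM. The set is thus led by a pair of neutrophil chemokines: Ppbp gave 62.0% and Cxcl5 30.6% of its ranking UMIs, against 5.98% from Ccl2 and 1.40% from Ch25h. A chemokine-rich cell held between 14 and 551 ranking UMIs with a median of 69, which was 1.30% to 7.58% of its transcripts. The last cell inside the limit had a share of 1.30368% and the first outside had 1.30329%, so the edge cuts a continuum. Chemokine-low cells had shares of 0 to 0.25%, and 1738 of them had no ranking UMI.

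At least 1 UMI was found in 98.97% of chemokine-rich cells for Cxcl5, in 98.88% for Ppbp, in 53.83% for Ccl2 and in 49.72% for Ch25h. All 4 genes were detected in 344 of the 1070 cells, 3 in 409, 2 in 305 and 1 in 12. The chemokine-rich cells held 36.3% of all Cxcl5 UMIs and 34.7% of all Ppbp UMIs in the 14925 cells, but 22.7% of those of Ccl2.

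Each ranking gene was also measured in cells ranked without it. Ranked on the other 3 genes, the top 10% had Cxcl5 at 5487 CPM against 680 CPM in the lower 50%, a ratio of 8.07. Left out in its turn, Ppbp stood at 9877 against 1469 CPM, a ratio of 6.72. For Ccl2 the levels were 1074 and 132.4 CPM, a ratio of 8.12, and for Ch25h 303.5 and 51.8 CPM, a ratio of 5.86. All 4 genes were therefore higher where the other 3 were high, with intervals that did not overlap. The cells themselves depended most on Ppbp: 691 of the 1070 cells (64.6%) were picked again without it, compared with 1054 (98.5%) without Ch25h. When the UMIs of every cell were split at random, 1 portion used to rank and the other to measure, 968 of the 1070 cells (90.5%) were picked again and Ppbp in the unused UMIs stood at 13800 against 707 CPM. Both portions come from the same cells, and the ranking portion is part of the counts that chose the 1070 cells. The split therefore shows only how far counting error moves the choice.

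At single-cell level the chemokines were found together. Among candidate cells thinned to 1500 UMIs, Cxcl5 was detected in 67.6% of cells with a Ppbp UMI and in 34.3% of cells without one. Cxcl3, no ranking gene, was detected in 16.3% of cells with a Cxcl5 UMI and in 2.14% of cells without. Ccl2 was detected in 32.2% of cells with a Ch25h UMI and in 15.04% of cells without. The secreted iron binder Lcn2 showed no such difference across Ccl2, at 13.4% and 13.7%.

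For all other genes, a gene was called different where its CPM differed by a ratio of at least 1.5 in either direction and the Poisson intervals of the levels did not overlap. This is a rule of size, not a test. Of 8247 genes at 10 CPM or more over the candidate cells, 350 (4.24%) were called higher in the chemokine-rich cells and 1280 (15.5%) were called lower, so that 19.8% were called in either direction and 21.5% of the calls were higher. Against 678 chemokine-low cells drawn to the same depth (median 3596.5 UMIs), 298 were called higher and 462 lower, so that 39.2% of calls were higher, and 229 of the 350 and 430 of the 1280 calls were shared. That draw also holds fewer cells, which widens the intervals. Against 678 chemokine-low cells drawn at any depth (median 2239 UMIs), 290 were called higher and 1002 lower. At this equal number of cells the lower calls were thus fewer at matched depth. For called genes named below, the ratio at matched depth is given wherever the call was lost or the ratio differed by over 1.5 times. Mthfd2l, Anxa1, Il18rap and Stap2, also named below, were not measured at matched depth. The median ratio over all tested genes was 0.907. The shares of 4.24% higher and 15.5% lower over all tested genes are the background for each count of list genes below. Ratios of at least 5 were found for 24 genes (0.291%). The minimum level was taken over all candidate cells, chemokine-rich cells included, so a gene could reach it mainly through those cells. Sprr2d, Psca, Csf2, Ccl20, Csf3, Cxcl10, Mmp13 and Zeb2, described below, are among those that stood under 10 CPM in the chemokine-low cells. The higher calls, the list counts that include them and the highest ratios are to be read with this limit.

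The neutrophil chemokine genes Cxcl3, Cxcl2 and Cxcl1, which did not enter the ranking, were among the 24 genes with ratios of at least 5. All 6 measured genes of the CXC and CX3C list, which also holds chemokines of other white blood cells, were called higher. Their median ratio was 4.03, and 4.24% of all tested genes were called higher. Cxcl3 stood at 564.7 CPM (541.4 to 588.7) in chemokine-rich and 19.7 CPM (17.4 to 22.3) in chemokine-low cells, a ratio of 28.6. Cxcl2 stood at 246.8 and 10.6 CPM, a ratio of 23.2. Cxcl1 stood at 1258 and 216.1 CPM, a ratio of 5.82. These genes encode Cxcr2 ligands like Cxcl5 and Ppbp, and none of the intervals overlapped. In thinned cells, Cxcl3 was detected in 38.6% of chemokine-rich and 1.96% of chemokine-low cells, and Cxcl1 in 63.4% and 20.1%. Smaller ratios were found for the membrane-anchored chemokines Cx3cl1 (2.24) and Cxcl16 (2.05). Cxcl10, an interferon-induced chemokine of the T cell receptor Cxcr3, was low in both sets, at 18.6 and 9.94 CPM. Its ratio of 1.87 was 1.64 at matched depth and no longer called. The other 7 members present were under the minimum level, Cxcl9 and Cxcl13 had no UMI in chemokine-rich cells, and Cxcl12 stood at 1.27 and 4.50 CPM.

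Of the ranked and unranked CXC genes 5 are neighbours. In GENCODE M21 on GRCm38, all on the plus strand of chromosome 5, Cxcl5 lies at 90759360 to 90761624, Ppbp at 90768518 to 90770063, Cxcl3 at 90786103 to 90789600, Cxcl1 at 90891241 to 90893115 and Cxcl2 at 90903871 to 90905938, the last starting 144.5 kb from the first. A pair of further chemokine genes in the same stretch did not share the level. Pf4, platelet factor 4, which starts between Ppbp and Cxcl3, had 18 UMIs in chemokine-rich and 6 in chemokine-low cells, or 4.59 and 0.466 CPM, a ratio of 9.85 (3.75 to 30.3). Cxcl15, the lung chemokine lungkine, had 8 and 9 UMIs, a ratio of 2.92 (0.980 to 8.52). Past Cxcl2, Mthfd2l, a mitochondrial folate enzyme, stood at 166.0 and 94.4 CPM, a ratio of 1.76, and farther on the same side the growth factor gene Ereg at 21.7 and 15.8 CPM, a ratio of 1.37. Before Cxcl5, at the cluster's other end, Rassf6, under the minimum level for a call, stood at 10.2 and 9.16 CPM, a ratio of 1.11. High levels with high ratios were therefore held by 5 chemokine genes of the cluster. For Cxcl5 and Ppbp this follows from the choice of cells, so only Cxcl3, Cxcl1 and Cxcl2 are a result. Of the neighbours named only Mthfd2l was called, but Pf4 and Cxcl15, like Rassf6, were under the minimum level and could not be called.

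**Figure D1:**
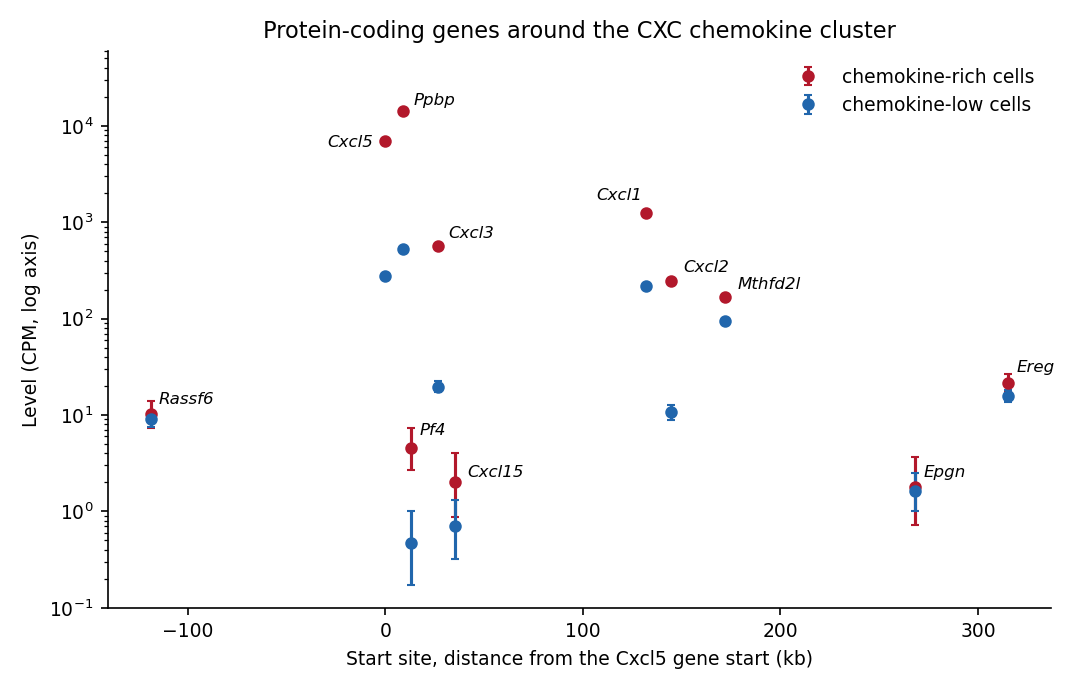
Levels of protein-coding genes around the CXC chemokine cluster. The x axis gives each gene's start site as its distance from the start of Cxcl5 in kb and the y axis its level in CPM on a log axis; red points are the 1070 chemokine-rich and blue points the 5349 chemokine-low cells, with bars for 95% Poisson intervals. Cxcl5, Ppbp, Cxcl3, Cxcl1 and Cxcl2 are separated by wide gaps, Mthfd2l by a small one, and the intervals of Cxcl15, Rassf6, Epgn and Ereg overlap. Pf4 is also separated, at low levels of 4.59 and 0.466 CPM. Cxcl5 and Ppbp are ranking genes, whose gaps follow from the choice of cells.

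Because the cluster genes were high in the same cells, their promoters are shown, each running from 250 bases before to 50 bases after the RefSeq start on GRCm38.p6. Of the cluster, the RefSeq table used here holds Ppbp (chr5:90768268-90768567, plus strand), Cxcl3 (chr5:90785851-90786150, plus strand), Cxcl1 (chr5:90890995-90891294, plus strand) and Cxcl2 (chr5:90903649-90903948, plus strand). Capitals mark matches to GGANTTTCC, a form of the NF-kB binding motif searched on both strands and chosen after the promoters had been read.
Ppbp: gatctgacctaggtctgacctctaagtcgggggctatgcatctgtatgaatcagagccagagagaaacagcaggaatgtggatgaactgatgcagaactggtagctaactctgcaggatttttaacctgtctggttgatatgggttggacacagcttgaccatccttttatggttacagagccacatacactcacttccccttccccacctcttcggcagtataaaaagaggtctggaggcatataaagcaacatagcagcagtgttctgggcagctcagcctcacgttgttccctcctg
Cxcl3: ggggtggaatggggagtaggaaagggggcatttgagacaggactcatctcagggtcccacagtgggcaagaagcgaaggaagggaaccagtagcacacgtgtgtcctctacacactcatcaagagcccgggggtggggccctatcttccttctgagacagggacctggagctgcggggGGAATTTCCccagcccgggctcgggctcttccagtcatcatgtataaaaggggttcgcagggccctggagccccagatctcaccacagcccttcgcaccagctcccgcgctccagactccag
Cxcl1: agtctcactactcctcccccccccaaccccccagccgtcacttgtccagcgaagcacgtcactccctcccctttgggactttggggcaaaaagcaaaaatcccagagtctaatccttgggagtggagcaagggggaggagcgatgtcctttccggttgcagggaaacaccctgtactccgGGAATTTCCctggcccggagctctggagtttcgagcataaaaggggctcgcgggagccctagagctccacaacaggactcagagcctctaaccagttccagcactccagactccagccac
Cxcl2: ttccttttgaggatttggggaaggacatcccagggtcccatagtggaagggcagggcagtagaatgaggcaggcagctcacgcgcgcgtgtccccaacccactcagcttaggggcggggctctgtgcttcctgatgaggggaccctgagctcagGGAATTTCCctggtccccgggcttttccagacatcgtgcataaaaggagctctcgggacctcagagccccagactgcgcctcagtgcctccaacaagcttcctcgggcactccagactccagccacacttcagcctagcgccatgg
The NF-kB motif was matched once in each of Cxcl3, Cxcl1 and Cxcl2, starting 72, 70 and 96 bases before the RefSeq start, and the matched letters were GGAATTTCC in all 3. It was not found in the window of Ppbp or in that of Ch25h (chr19:34475099-34475398, minus strand). Of all 32851 promoters in the table, 1.25% held it, and of the promoters of tested genes 1.43%. Among promoters of genes called higher the share was 4.62% (15 of 325), and these 15 belong to Cxcl1, Cxcl2, Cxcl3, Cxcl10, Csf1, Nfkbia, Icam1, Ier3, Tnfaip2, Pglyrp1, Ifngr2, Anxa1, Il18rap, Stap2 and AW112010. Among promoters of genes called lower it was 1.37% (19 of 1383). The letters were chosen after the promoters of Cxcl1, Cxcl2 and Cxcl3 had been read, and these are counted among the 15. The share among genes called higher is thus partly set by that choice and is a description only. A match is a string of letters and not a measured binding site. TGANTCA, the motif of AP-1, also searched on both strands, was in 7.81% of all promoters, 5.43% of those of tested genes, 12.0% of those called higher and 4.63% of those called lower. The TATA box letters TATAAA, read on the gene's own strand, were in 8.32% of all promoters, 4.29% of those of tested genes, 8.62% of those called higher and 4.12% of those called lower, and in the windows of Ppbp, Cxcl3 and Ch25h.

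Among the CC chemokines the pattern was narrower. Of 6 measured genes, Ccl20, Ccl5 and Ccl7 were called higher and none lower. Ccl20, the ligand of Ccr6 on dendritic cells and Th17 cells, stood at 90.8 CPM (81.6 to 100.7) in chemokine-rich and 4.97 CPM (3.83 to 6.35) in chemokine-low cells, a ratio of 18.3. Ccl7, the neighbour of Ccl2 on chromosome 11 (82045712 to 82047525, plus strand, 10.1 kb from the start of Ccl2), stood at 134.6 and 33.2 CPM, a ratio of 4.05. Ccl5, the T cell and monocyte chemokine RANTES, stood at 119.3 and 18.6 CPM, and its ratio of 6.43 was 2.33 at matched depth. In the same chromosome 11 cluster, Ccl8 was low, with 30 and 20 UMIs and a ratio of 4.92 (2.71 to 9.15), and Ccl11 and Ccl12 had at most 4 UMIs in either set. The predicted gene Gm17268 overlaps Ccl2 on the other strand, and since no source used here states whether the counting used strand, its 72 UMIs cannot be told apart from reads of Ccl2. Ccl9 (194.5 and 211.5 CPM), Ccl25 (27.5 and 32.4 CPM) and Ccl27a (15.6 and 14.9 CPM) were not called. Ccl3, Ccl4, Ccl11, Ccl22 and Ccl28 had no UMI in the chemokine-rich cells.

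Cytokines and growth factors followed. Of 14 measured genes 10 were called higher and none lower, with a median ratio of 3.03. Csf2, which encodes the granulocyte and macrophage colony-stimulating factor GM-CSF, stood at 142.5 CPM (130.9 to 154.8) in chemokine-rich and 7.53 CPM (6.11 to 9.19) in chemokine-low cells, a ratio of 18.9. Csf3, the neutrophil growth factor G-CSF, stood at 83.1 and 8.47 CPM, a ratio of 9.82. The epithelial alarmins, cytokines released by stressed barrier cells, included Tslp at 279.4 and 27.3 CPM, a ratio of 10.2. A single cell held 249 of the 1096 Tslp UMIs of the chemokine-rich cells, and without it the ratio was 7.91. Il33 stood at 218.2 and 22.0 CPM, a ratio of 9.93, and Il1a at 177.2 and 45.4 CPM, a ratio of 3.90. Tnf, the classical inducer of NF-kB, stood at 76.7 and 19.3 CPM, a ratio of 3.97. Lower ratios were found for Lif (3.12), for Il1rn (2.94), which encodes the natural antagonist of the interleukin-1 receptor, and for Csf1 (1.73). Hbegf, an EGF receptor ligand, had a ratio of 1.53 that was 1.33 at matched depth and no longer called. Il18, Ereg, Tgfa and Vegfa were measured and not called, with ratios from 0.992 to 1.38.

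Of 11 measured receptor and adaptor genes 1 was called higher and 3 lower, with a median ratio of 0.761, against 4.24% and 15.5% of all tested genes. Ifngr2, a chain of the interferon gamma receptor, stood at 126.5 and 68.1 CPM, a ratio of 1.86. The chemokine scavenging receptor Ackr3 stood at 6.12 and 19.3 CPM, a ratio of 0.316. Il1rap (0.583) and Osmr (0.578) were called lower, and neither was called at matched depth, where their ratios were 0.700 and 0.689. Cxcr1 and Cxcr2, the receptors of the leading chemokines, and Ccr1 and Ccr2 had no UMI in the chemokine-rich cells, where a count of 0, with a limit of 3 UMIs, allows a level of up to 0.765 CPM.

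Of 25 measured NF-kB factors and targets 11 were called higher and 2 lower, with a median ratio of 1.37. Nfkbia, which encodes the inhibitor I-kappa-B alpha and is itself a target, stood at 1676 CPM (1636 to 1717) in chemokine-rich and 744.4 CPM (729.6 to 759.4) in chemokine-low cells, a ratio of 2.25. It was detected in 81.5% and 55.9% of thinned cells, so its difference was spread over most of the set. The adhesion molecule genes Vcam1 and Icam1, whose products hold white blood cells, had ratios of 5.25 (110.9 and 21.1 CPM) and 2.25 (70.4 and 31.3 CPM). Tnfaip2 had a ratio of 4.61 (240.4 and 52.2 CPM). The complement component C3 (2.77), the survival gene Ier3 (2.64), the prostaglandin synthase Ptgs2 (2.46), the transcription factor Irf1 (2.30), the I-kappa-B family genes Nfkbib (1.88) and Nfkbiz (1.73) and the RNase Zc3h12a (1.85) made up the other higher calls. The kinase subunit Ikbkb (0.583) and Cebpd (0.666) were called lower, and Cebpd had a ratio of 0.987 at matched depth. The factor genes Nfkb1 (82.6 and 84.9 CPM) and Rel (56.1 and 76.1 CPM) were not called.

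**Figure D2:**
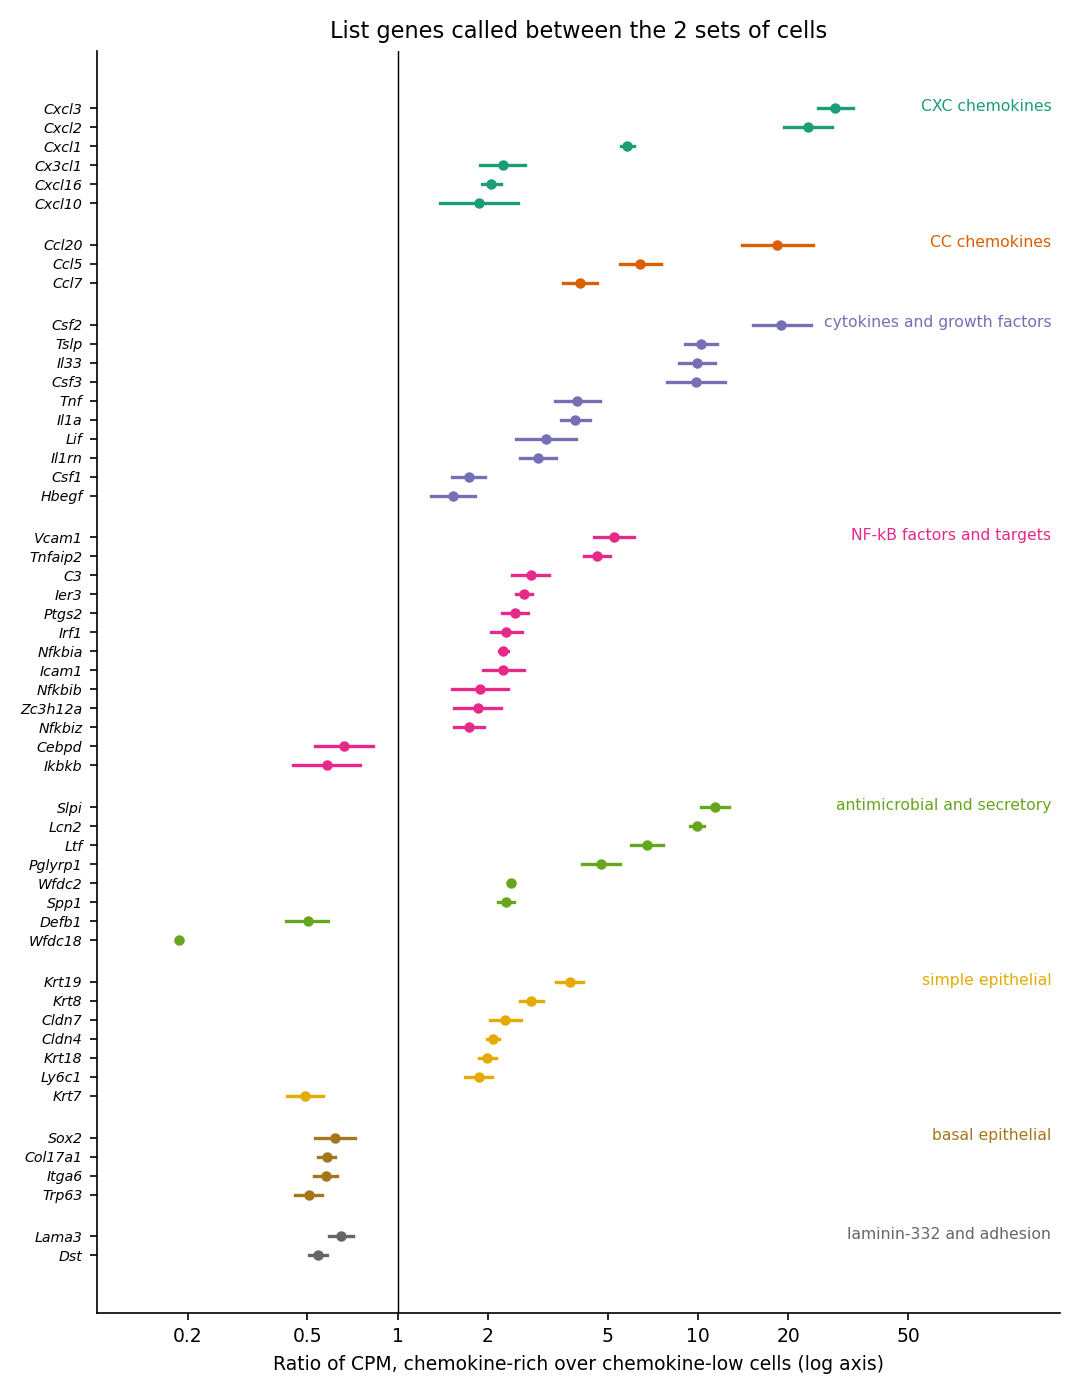
Ratio of CPM in chemokine-rich over chemokine-low cells for called genes of 8 gene lists, on a log axis, with exact 95% intervals of the ratio as lines and colours for the lists. The CXC, CC and cytokine genes all lie above 1, with Cxcl3 at 28.6 and Csf2 at 18.9, whereas the basal and laminin genes shown all lie below 1 and Wfdc18 lies lowest at 0.187.

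Several of the highest ratios belonged to barrier and antimicrobial genes. Sprr2d, a small proline-rich protein of the cornified envelope, had the largest ratio of all tested genes: 267.4 CPM (251.5 to 284.1) against 3.96 CPM (2.95 to 5.21), or 67.5, and 38.8 at matched depth. It was detected in 113 of the 1070 cells, and the 107 cells with most of it held 99.4% of its UMIs. Psca, prostate stem cell antigen, was detected in 101 cells and stood at 70.4 and 1.94 CPM, a ratio of 36.2 that was 21.7 at matched depth. Lcn2 and Slpi were more widely held, with a UMI in 414 and 505 of the 1070 cells. Slpi, a secreted inhibitor of neutrophil elastase, stood at 407.4 and 35.8 CPM, a ratio of 11.4. The iron-binding antimicrobial proteins Lcn2 (1350 and 135.9 CPM) and Ltf (211.9 and 31.4 CPM) had ratios of 9.94 and 6.75, the latter 10.7 at matched depth. Pglyrp1, a peptidoglycan recognition protein, had a ratio of 4.77, and Wfdc2 and Spp1 had ratios of 2.39 and 2.30. Of 9 measured antimicrobial and secretory genes 6 were higher and 2 lower, Defb1 at a ratio of 0.502 and Wfdc18, a whey acidic protein family gene, at 1902 against 10170 CPM, a ratio of 0.187.

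The rest of the 20 highest ratios were Cenpm (9.24), Gabrp (8.79), Plac8 (8.51), Gm15056 (8.23), AA467197 (6.98), Aldh1a3 (6.96), a retinaldehyde dehydrogenase, and AW112010 (6.03). Among these, AW112010 had a ratio of 9.01 and all others of 5.26 to 9.34 at matched depth.

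Epithelial identity was shared with the chemokine-low cells. Of 11 measured basal epithelial genes none was called higher and 4 lower, with a median ratio of 0.830, against 4.24% and 15.5% of all tested genes. The basal keratins Krt5 (756.7 and 720.5 CPM), Krt14 (1143 and 1252 CPM) and Krt17 (1779 and 1461 CPM) and the adhesion molecule Epcam (1330 and 1218 CPM) were not called. Trp63, the master regulator of stratified epithelium, stood at 103.0 CPM (93.2 to 113.5) and 203.4 CPM (195.7 to 211.3), a ratio of 0.506. The hemidesmosome genes Col17a1 (261.3 and 449.5 CPM) and Itga6 (147.6 and 255.7 CPM) had ratios of 0.581 and 0.577. Sox2 had a ratio of 0.620, and of 0.728 and no call at matched depth. Of 10 measured laminin-332 and adhesion genes 3 were called lower, among them Dst (0.544) and Lama3 (0.648, and 0.777 at matched depth, not called), and 7 were not called.

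Simple epithelial genes were higher with 1 exception. Of 7 measured genes 6 were called higher, with a median ratio of 2.08. Krt19 stood at 208.0 and 55.6 CPM, a ratio of 3.74, its partner Krt8 at 241.4 and 86.7 CPM, a ratio of 2.79, and Krt18 at 380.4 and 191.5 CPM, a ratio of 1.99. The tight junction genes Cldn7 and Cldn4 had ratios of 2.28 and 2.08. Ly6c1 had a ratio of 1.86, and of 1.44 and no call at matched depth. Krt7 went the other way, at 59.9 and 121.4 CPM, a ratio of 0.494. Of 6 measured squamous differentiation genes 3 were called higher: Ly6d (2.55), the wound keratin Krt6a (1.98) and Sprr1b (1.84, and 1.25 at matched depth, not called). Sprr1a stood at 158.3 and 215.7 CPM and was not called, although at matched depth it was called lower with a ratio of 0.622, and Krt1, Dsg1a and Cnfn had no UMI in the chemokine-rich cells.

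Sterol genes were examined because Ch25h entered the ranking. Of 21 measured genes 7 were called higher and 1 lower, with a median ratio of 1.34. The synthesis enzymes Idi1 (2.05), Fdps (1.79) and Cyp51 (1.69) and the feedback regulator Insig1 (1.74) were higher. Mvd (2.22) and the bile acid enzyme Hsd3b7 (1.81) were called but not at matched depth, where Mvd had a ratio of 2.07 with overlapping intervals and Hsd3b7 of 1.38. The cholesterol exporter Abca1 stood at 8.92 and 23.1 CPM, a ratio of 0.387. Cyp7b1, the enzyme that breaks down 25-hydroxycholesterol, stood at 120.1 and 132.7 CPM and was not called, and Gpr183, a receptor of derived oxysterols, had no UMI in the chemokine-rich cells.

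Of 12 measured interferon-stimulated genes 3 were called higher, Ifit1 (1.75), Ifit3 (1.64) and Oasl2 (1.84), and Stat2 (0.502) lower, with a median ratio of 1.11. Ifit3 had a ratio of 1.53 at matched depth, where the intervals overlapped. Without the 287 cells that also had high Ltf and Lcn2, described below, Ifit1 (1.25), Ifit3 (0.908) and Oasl2 (1.47) were not called. Isg15, a ubiquitin-like protein of the same response, stood at 144.0 and 133.7 CPM. None of 6 measured MHC class I genes was called, with H2-K1 at 517.8 and 361.4 CPM. Of 12 immediate early genes only Dusp1 (1.57, and 0.884 without the 287 cells) was called, of 9 oxidative stress genes only Gclc (0.600), and of 11 glycolysis and hypoxia genes Ldha (1.53) and Pfkp (0.384). None of 4 measured DNA replication genes was called, with Pcna at 47.4 and 41.0 CPM. Of 9 cell cycle arrest and p53 target genes, Cdkn2a and Sesn1 (0.376) were called, and Cdkn1a, which encodes p21, stood at 119.8 and 84.3 CPM without a call, and was called at matched depth with a ratio of 1.79.

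Among secreted proteases and their regulators, 4 of 9 measured genes were called higher and 1 lower. The collagenase gene Mmp13 stood at 25.8 and 6.91 CPM, a ratio of 3.73 that was 2.19 at matched depth. It was detected in 44 chemokine-rich cells, and 1 of them held 25 of its 101 UMIs there. Without that cell the ratio was 2.81. The urokinase Plau and its receptor Plaur had ratios of 1.52 and 1.799, Plau reaching 2.37 at matched depth, and Timp1 had a ratio of 1.53, and of 1.33 and no call at matched depth. Timp3 had a ratio of 0.335. The proliferins, placental hormones of the prolactin family, divided: Prl2c3 (447.2 and 152.2 CPM, ratio 2.94) and Prl2c2 (230.5 and 76.5 CPM, ratio 3.01) were higher and Prl2c5 (16.6 and 49.1 CPM, ratio 0.338) lower. The proliferin genes are near-identical copies between which the counting could divide reads, so these 3 values are uncertain.

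Markers of immune cells, platelets and endothelial cells were low. Of 14 immune markers Cd14, the lipopolysaccharide co-receptor that epithelia also make, was alone above the minimum level, at 91.5 and 31.9 CPM, a ratio of 2.87. The immune list summed to 109.6 CPM in chemokine-rich and 42.6 CPM in chemokine-low cells, and 6 of its genes, including Ptprc, the pan-leukocyte marker CD45, and Adgre1, had no UMI in the chemokine-rich cells. Ppbp and Pf4 are known from platelets. Of 10 platelet and megakaryocyte markers 8 were at 0 in the chemokine-rich cells, among them Gp1ba, Gp1bb and Gp9, while Alox12 had 59 and Itga2b 7 UMIs there, and the list summed to 16.8 CPM in chemokine-rich and 38.1 CPM in chemokine-low cells. The endothelial list summed to 11.7 and 12.2 CPM with Cdh5, Cldn5 and Emcn at 0. The mesenchymal list was not low, and summed to 524.2 CPM in chemokine-rich and 1194 CPM in chemokine-low cells. Of 5 measured mesenchymal markers 4 were called lower: Tagln (0.110), Sparc (0.276), Fn1 (0.488) and Acta2 (0.495). The exception was Zeb2, at 18.4 and 9.40 CPM, a ratio of 1.95, and 6 of the 16 markers, including Col1a2 and Col3a1, were at 0. The rule itself kept cells with Vim and 4 other mesenchymal genes out of both sets. Xist had no UMI in the chemokine-rich cells. Of 4 measured Y-linked genes Uty was called lower, with a ratio of 0.642 at matched depth, and Ddx3y, Eif2s3y and Kdm5d were not called.

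The lowest ratios of all tested genes belonged to Klk8 (0.0995, interval 0.0395 to 0.208), Tagln (0.110), 2610008E11Rik (0.129, 0.0580 to 0.248), Prrg1 (0.137, 0.0620 to 0.266), Bbox1 (0.141, 0.0826 to 0.225), Aim2 (0.149), Dclk1 (0.158, 0.0831 to 0.275) and Samd5 (0.160). They were followed by Tgfb3 (0.163, 0.0800 to 0.297), Itgb8 (0.169, 0.0886 to 0.294), Wfdc18 (0.187), Ctnnd2 (0.191), Clstn2 (0.196), Lrig3 (0.198, 0.116 to 0.319) and Hoxc8 (0.216, 0.126 to 0.347). Intervals are given for genes with under 20 UMIs in the chemokine-rich cells. Klk8, an epidermal serine protease, had 7 UMIs in the chemokine-rich cells and stood at 1.78 and 17.9 CPM. Ctnnd2, a neural catenin with a very long gene body, stood at 36.2 and 189.1 CPM. All 15 kept a ratio under 0.330 at matched depth, from 0.0934 for Tagln to 0.329 for Tgfb3. Aim2 had a ratio of 0.280 there, Dclk1 of 0.263, Samd5 of 0.263 and Lrig3 of 0.297.

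Levels differed by degrees along the ranking. When the 10698 candidate cells were put in order of their ranking share and divided into 10 equal groups, Cxcl1 was lower in each successive group, from 1258 CPM in the highest through 731.1 and 548.4 CPM in the following pair to 148.2 CPM in the lowest. Nfkbia was also lower at each of the 9 steps, from 1676 to 644.9 CPM. Cxcl3 stood at 564.7, 226.3 and 109.3 CPM in the first 3 groups and at 11.3 CPM in the last. The antimicrobial gene Lcn2 differed mainly at the top, from 1350 CPM to 141.9 CPM in the fifth group, and then lay between 110.3 and 150.9 CPM. Tslp was uneven, with 66.2 CPM in the fifth group and 38.4 CPM in the last. Krt5 lay between 686.8 and 757.8 CPM throughout. Wfdc18 had its lowest level, 1902 CPM, in the first group and its highest, 10980 CPM, in the eighth. For Cxcl1, Cxcl3 and Nfkbia, the difference was thus not limited to the step between the first group, which is the chemokine-rich set, and the second. The 1738 cells without a ranking UMI are tied and were ordered as in the file. They fill the last group and part of the ninth, so the last step is not fully an order of share. Median depth was 3600.5 UMIs in the first and 1682 in the last group, and was not matched here.

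**Figure D3:**
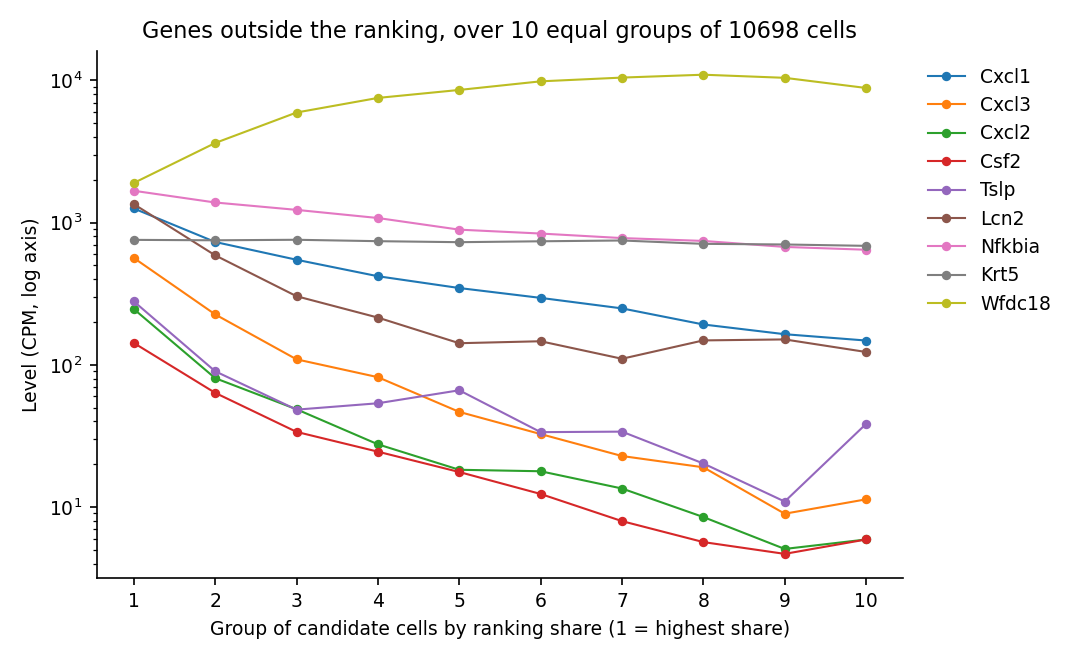
Levels of 9 genes outside the ranking over 10 equal groups of candidate cells, in order of the share of UMIs from Cxcl5, Ppbp, Ccl2 and Ch25h (x axis, group 1 has the highest share and is the chemokine-rich set; y axis, CPM on a log axis, 1 coloured line a gene). Cxcl1 and Nfkbia are lower at each of the 9 steps, Krt5 stays between 686.8 and 757.8 CPM, and Wfdc18 is lowest in group 1 at 1902 CPM. Cells without a ranking UMI are tied and fill group 10 and part of group 9.

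The chemokine-rich cells were not uniform. Ppbp had the most ranking UMIs in 813 cells, Cxcl5 in 219, Ccl2 in 26 and Ch25h in none, with 12 ties. Median depth was 3696 UMIs in Ppbp-led and 3194 in Cxcl5-led cells. Between these 2 groups, 293 genes (3.55%) were called higher in Cxcl5-led cells and 101 (1.22%) in Ppbp-led cells. Cxcl5-led cells had more Ccl20 (216.5 and 55.1 CPM, ratio 3.93), Ltf (519.8 and 142.1 CPM, ratio 3.66), Slc7a11, the cystine transporter (86.9 and 23.8 CPM, ratio 3.65), and Cyp2f2 (38.6 and 5.54 CPM, ratio 6.97). Ppbp-led cells had more of the peptide hormone gene Nts (261.1 and 48.3 CPM, ratio 5.41), of the stress keratin gene Krt16 (44.3 and 8.27 CPM, ratio 5.36), of Plac8 (104.3 and 27.6 CPM, ratio 3.78) and of Psca (82.5 and 29.0 CPM, ratio 2.85). Slc7a11, Cyp2f2, Nts and Krt16 were picked here after their values were seen.

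Another division followed Ltf and Lcn2. The 10% of candidate cells with the highest share of Ltf and Lcn2 UMIs, 1070 cells, held 287 of the chemokine-rich cells, which is 26.8% of either set, whereas that set holds 10% of all candidate cells. Depth was alike, with medians of 3501 UMIs in the 287 cells and 3659 in the other 783. Between them, 355 genes (4.3%) were called higher inside and 333 (4.04%) higher outside. Sprr2d stood at 911.9 CPM (854.0 to 972.8) inside and 43.9 CPM (36.7 to 52.3) outside, Psca at 209.9 and 22.0 CPM, and Cenpm at 137.6 and 9.27 CPM. The cytokines Il33 (589.1 and 89.6 CPM), Csf3 (204.0 and 41.2 CPM) and Csf2 (316.8 and 82.1 CPM) and the chemokines Ccl20 (220.8 and 45.7 CPM) and Cxcl3 (890.1 and 451.9 CPM) were also higher inside. Ccl7 stood lower inside, at 59.4 and 160.7 CPM, and so did Ccl9, at 24.8 and 253.4 CPM. Ccl2 stood at 672.3 CPM inside and 1600 CPM outside, but it helped to choose these cells, and over all thinned candidate cells it was detected in 16.97% of those with an Lcn2 UMI and 17.26% of those without. Prl2c3 (145.5 and 551.8 CPM) and Wfdc18 (631.7 and 2343 CPM) were higher outside too. Nfkbia (1644 and 1688 CPM) was not called. Neither was Tslp (313.9 and 267.5 CPM), but the single cell with 249 Tslp UMIs lay outside, and without it the levels were 313.9 and 182.3 CPM, a ratio of 1.72.

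With the 287 cells left out, 275 genes were called higher and 1187 lower against the chemokine-low cells. Sprr2d then had a ratio of 11.1, Psca of 11.3, Il33 of 4.08, Csf3 of 4.87, Csf2 of 10.9, Ccl20 of 9.19 and Cenpm of 2.02, all still called. Cxcl3 had a ratio of 22.9, Cxcl2 of 17.3, Tslp of 9.78 (6.67 without that single cell), Vcam1 of 6.08 and Nfkbia of 2.27. Larger drops were found for Gabrp, to 3.34, AA467197, to 3.58, Pglyrp1, to 2.16, AW112010, to 2.29, Aldh1a3, to 4.09, Plac8, to 5.49, Il1rn, to 1.90, Cd14, to 1.62, and Krt19, to 2.34. Among the genes that lost their calls were Zc3h12a, Nfkbiz and Ifngr2, with ratios of 1.42, 1.42 and 1.37, Plau (1.39), Zeb2 (1.43), Hbegf (1.22), Osmr (0.641), Col17a1 (0.703) and Lama3 (0.725).

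**Figure D4:**
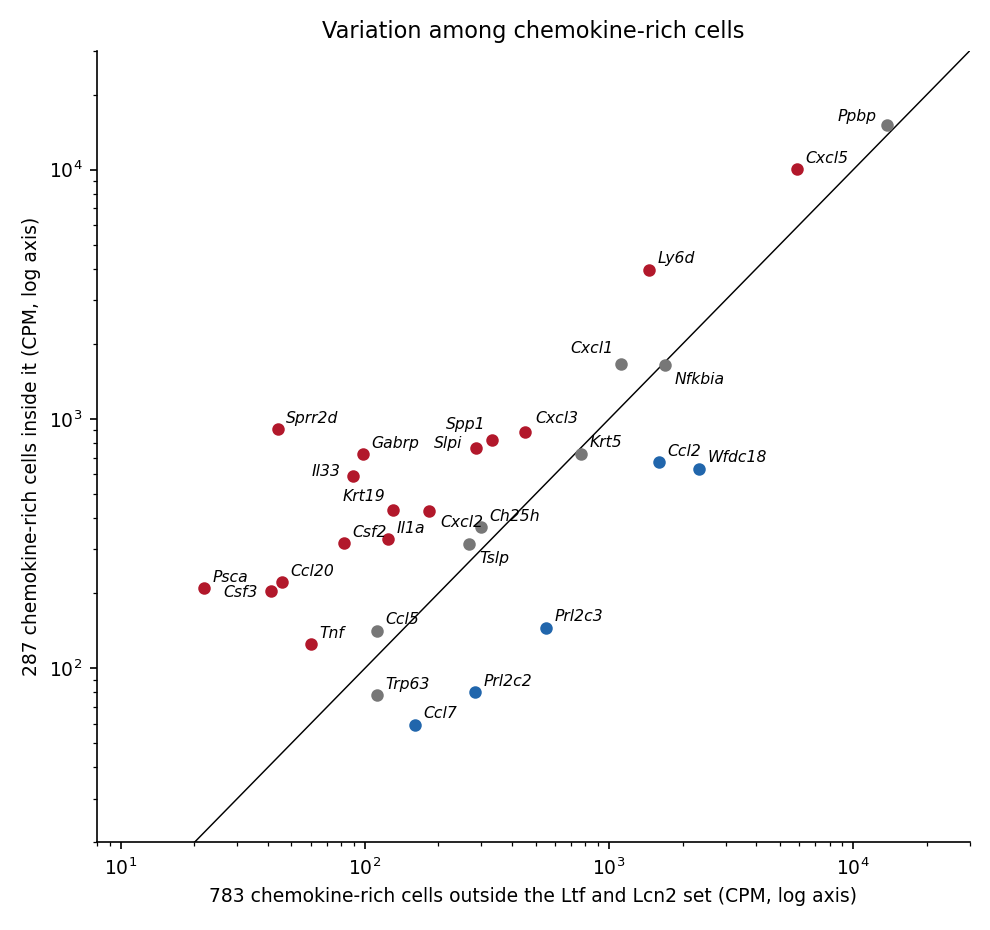
Levels of 29 genes in the 783 chemokine-rich cells outside (x axis) and the 287 inside (y axis) the set with the highest Ltf and Lcn2 share, both in CPM on log axes, with the line of equal level. Red genes are at least 1.5 times higher inside, blue genes at least 1.5 times higher outside and grey genes in between; Sprr2d at 911.9 against 43.9 CPM lies far above the line and Ccl2, Ccl7 and Prl2c3 lie below it.

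Single genes were spread unevenly even so. The 107 cells with most UMIs of a gene, 10% of the chemokine-rich cells, held 27.2% of the Cxcl5, 27.6% of the Ppbp and 27.6% of the Nfkbia UMIs. They held 53.1% of the Cxcl3, 56.4% of the Ccl2, 72.4% of the Csf2 and 90.3% of the Tslp UMIs. Genes detected in few cells reach high values on this measure by sparse counting alone. Within thinned chemokine-rich cells, Lcn2 was detected in 72.8% of cells with a Sprr2d UMI (62.6% to 81.6%) and in 27.5% of cells without (24.7% to 30.4%). Cxcl3 was detected in 71.7% and 35.4% of the same cells.

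To place the set among the other epithelial states of the culture, it was compared with 3 sets of 1070 candidate cells chosen in the same way from other genes, cells in both sets left out. Only 13 chemokine-rich cells (1.22%) were also in the set highest in Wfdc18 and 39 (3.64%) in the set highest in Krt7 and the laminin-332 genes, against 10% of candidate cells each. Against Ltf and Lcn2 cells, 271 genes (3.29%) were called higher in the chemokine-rich cells and 709 (8.6%) lower. Tslp stood at 267.5 and 44.4 CPM, a ratio of 6.02 (4.10 without the single cell), Ccl7 at 160.7 and 44.9 CPM, a ratio of 3.58, Prl2c3 at 551.8 and 64.9 CPM, a ratio of 8.50, and Vcam1 at 128.4 and 31.2 CPM, a ratio of 4.11. Smaller ratios were called for Cxcl2 (2.35), Cxcl3 (2.16), Cxcl1 (1.52) and Nfkbia (1.51). Csf2 (82.1 and 86.4 CPM) and Ccl20 (45.7 and 34.7 CPM) were not called, so the rule of size did not separate these sets by either gene. Tnf (60.1 and 60.5 CPM), Il1a (124.3 and 167.0 CPM), Ier3 (387.3 and 367.1 CPM) and Krt8 (203.3 and 202.6 CPM) were not called either. Sprr2d (43.9 and 107.4 CPM), Il33 (89.6 and 252.9 CPM), Csf3 (41.2 and 63.95 CPM) and Krt19 (130.1 and 290.0 CPM) were lower. Median depth was 3659 UMIs in these chemokine-rich and 2472 in these Ltf and Lcn2 cells, and was not matched here.

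Against Wfdc18 cells, 409 genes (4.96%) were higher and 379 (4.6%) lower. Csf2 stood at 143.5 and 2.30 CPM, Cxcl2 at 249.0 and 6.25 CPM and Cxcl3 at 568.0 and 19.1 CPM, whereas Prl2c3 (447.0 and 388.7 CPM) was not called. Against Krt7 and laminin-332 cells, which had a median of 2031.5 UMIs, 396 genes (4.8%) were higher and 1555 (18.9%) lower. Here Cxcl3 stood at 562.1 and 36.5 CPM, Il33 at 223.3 and 15.8 CPM and Trp63 at 103.0 and 193.3 CPM.

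The chemokines were also measured in cells that the rule set aside. In 1049 dividing epithelial cells of at least 10 division UMIs, Ppbp stood at 4695 CPM, Cxcl5 at 1612, Ccl2 at 283 and Ch25h at 83.7 CPM, so that Ppbp lay between its levels in the middle and chemokine-rich cells. In 344 mesenchymal-rich cells of at least 10 mesenchymal UMIs, Ccl2 stood at 1537 CPM and Ccl7 at 1178 CPM, above the chemokine-rich cells, but Ppbp at 426 and Cxcl5 at 483 CPM. The chemokine-rich epithelial cells thus did not hold the highest Ccl2 or Ccl7 level of the culture. As a measure of free RNA in droplets, the epithelial keratin gene Krt5 had a UMI in 4.36% of the mesenchymal-rich cells (median 3720.5 UMIs) and in 72.5% of candidate cells (median 2748 UMIs). Ch25h and Lcn2 each had a UMI in 0.872% of mesenchymal-rich cells, Cxcl3 in 5.81% and Sprr2d in 0 of 344, for which a limit of 3 cells gives at most 0.872% and the exact interval an upper bound of 1.07%. Ppbp had a UMI in 147 and Cxcl5 in 172 of the 344 cells, so how far free RNA adds to those genes was not tested.

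**Figure D5:**
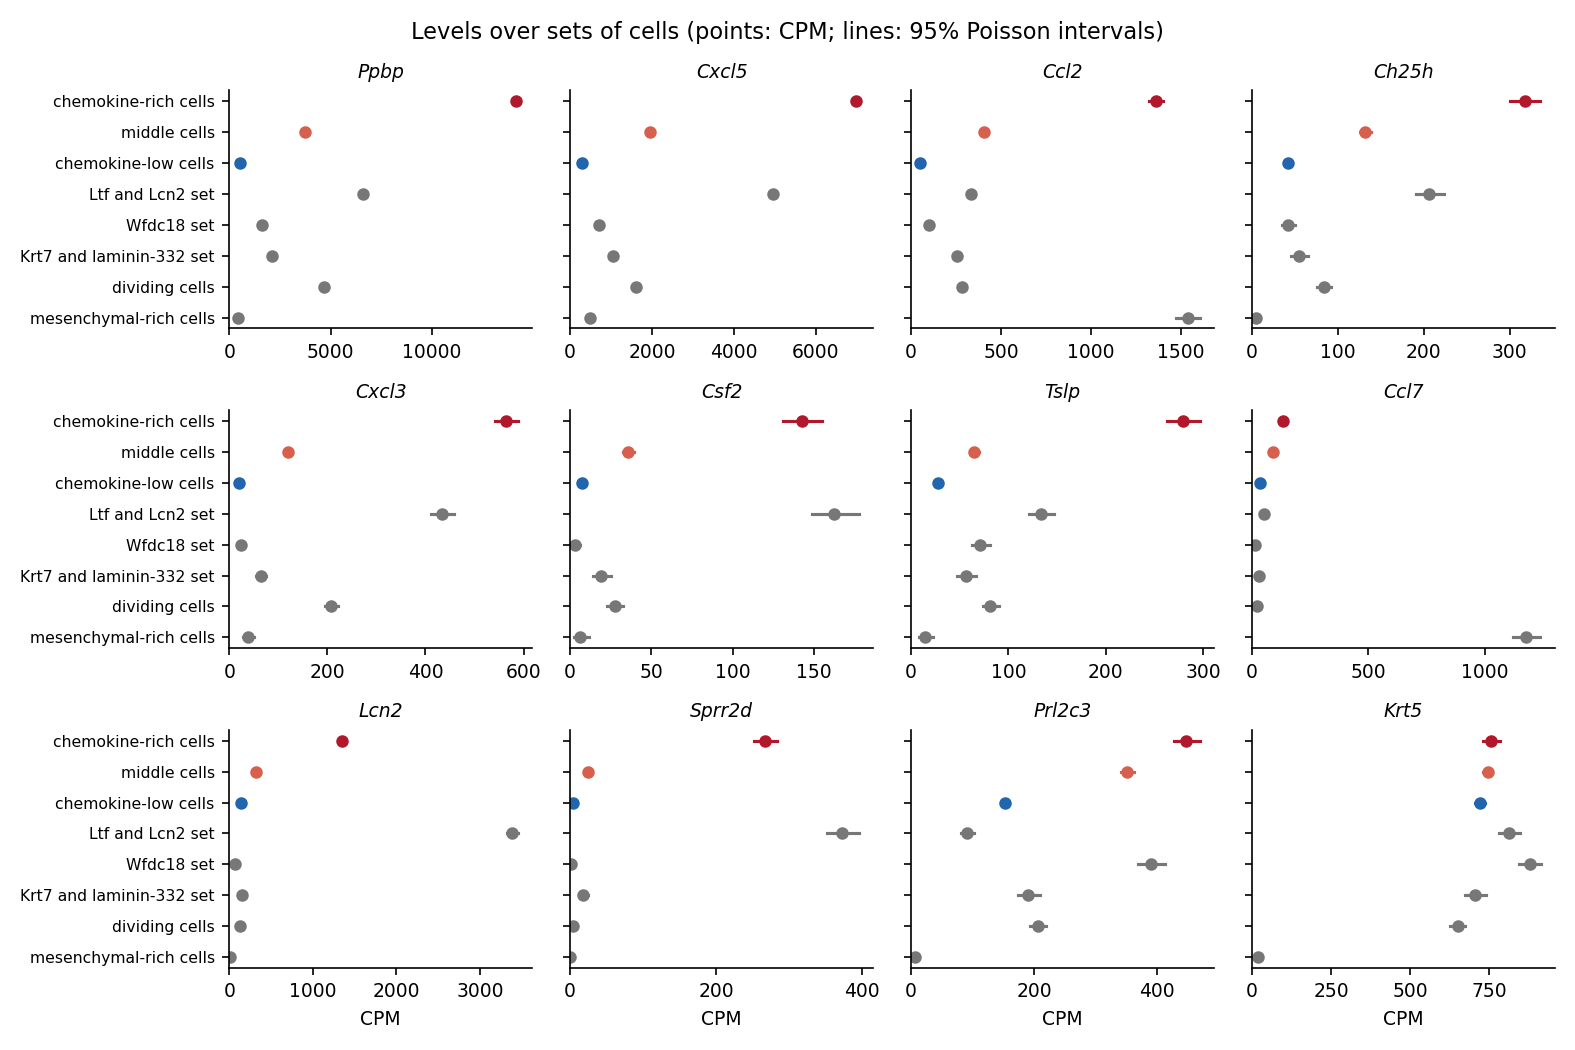
Levels of 12 genes (CPM, linear axes from 0) in 8 sets of cells, 1 panel a gene, with lines for 95% Poisson intervals and red, orange and blue for chemokine-rich, middle and chemokine-low cells. Ccl2 and Ccl7 are highest in the mesenchymal-rich cells at 1537 and 1178 CPM, and Tslp and Ch25h in the chemokine-rich cells. Lcn2, Csf2 and Sprr2d are highest in the set chosen on Ltf and Lcn2, which shares 287 cells with the chemokine-rich set. Without the shared cells, Csf2 stands at 86.4 CPM in that set and 82.1 CPM in the chemokine-rich cells, and Sprr2d at 107.4 and 43.9 CPM. Krt5 lies between 649.9 and 877.9 CPM in all sets but the mesenchymal-rich one.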

How the data were processed

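The values deposited were UMI counts per gene and cell barcode, as whole numbers, which the authors made with CellRanger 8.0.1 per the file headers. The submitters' processing notes name Cell Ranger, Scanpy 1.8.2 and mm10; annotation, strand setting and the library behind the matrix are named in no source used here. No column outside the labelled samples was used. Per cell totals, CPM (UMIs per 1000000), intervals, thinning and calls were computed here from those counts with Python 3.11.15, numpy 2.4.6, scipy 1.17.1 and pandas 2.3.3. GFP, Scar and the 4 ranking genes were left out of the calls. Of the 32287 feature IDs, 32158 were found in GENCODE M21. Promoters came from RefSeq, which held 178 of the 226 named genes. The calling step was tested on simulated counts.

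Members, gene lists and comparisons were chosen with earlier results of these data known. Named genes are the ranking genes, Trp53 and Cdkn2a, the 20 highest and 15 lowest called ratios, and of each list its called genes and up to 4 others of highest CPM. Ratios resting on under 20 UMIs carry an interval. Scrublet in scanpy 1.11.5 called 1 of 14925 cells a doublet (0.0067%), which is no working call, so doublets were not removed. Alternatives changed the cell filters, ranking, comparison cells, normalization and call rule. A few list genes are counted but not reported here by name.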

Additional observations from a re-analysis of the deposited data

Results flagged for a closer look

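The matrix counts 2 added sequences, GFP and Scar, that no comparison above used. Both gave UMIs above the limit that a count of 0 allows (0.280% of the 1070 chemokine-rich cells). A GFP UMI was found in 100% of the chemokine-rich cells (1070 of 1070, exact interval 99.7% to 100%) and a Scar UMI in 99.9% (1069 of 1070, 99.5% to 100%), with medians of 36 and 32 UMIs a cell. They took 1.18% and 1.10% of the UMIs in these cells, at 11830 and 10990 CPM against 18590 and 18560 CPM in the chemokine-low cells. No cells without the constructs were in the matrix for comparison, and no source used here says which sequences were counted under these names.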

How the results depend on the processing

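With 1 pooled sample, no left-out replicate could be run. No paired analysis was possible because the labels give no shared replicate numbers and no test was made. The median UMIs of chemokine-rich cells, 3600.5, were 3750 with at least 1000 genes and 2000 UMIs, 3704 in the top 5% (535 cells), 3476.5 in the top 20% (2140 cells) and 3407 when ranked without Ppbp. The 350 higher and 1280 lower calls became 196 and 751 against all other candidate cells, 128 and 285 at a ratio of at least 2, and 135 and 445 among genes of at least 50 CPM. Without a minimum level 555 genes were higher. Lower calls were 644 when ranked without Ppbp (33.5% of calls then higher), 835 in cells thinned to 1500 UMIs, 462 at matched depth and 1002 against an equal number of chemokine-low cells drawn at any depth. Ranked without Ppbp, ratios passed to the other side of 1 for Ube2c (0.521), Abca1 (1.00), Cxcl12 (1.02) and Col1a1 (1.08); the cause was not tested. Without the 287 cells of the Ltf and Lcn2 set, they did so for Lcn2 (0.498) and Ltf (0.175), since that choice takes the cells richest in both from 1 side only, and for Pigr (0), Dusp1 (0.884) and Ifit3 (0.908), where the cause was not tested. Uncalled genes that crossed 1 there include Isg15 (0.770), Cdkn1a (0.994) and Ccl9 (1.198). Over 226 named genes and 20 settings, 3925 of 4377 ratios kept their direction and their side of the call rule, 156 crossed 1 without a call in either setting, 216 lost and 71 gained a call. The matched depth, the equal number of cells, the cells outside the Ltf and Lcn2 set, and a run without the 10% of candidate cells of highest Malat1 share (329 higher, 939 lower) were chosen after seeing the data. Leaving out the 10% of candidate cells with the highest doublet scores, 104 of them chemokine-rich, gave 377 and 1384 calls. Counting error alone sets the intervals, and cells of 1 culture are not replicates.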
